A study of Mus musculus with 24 samples.

Results

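The 10 inflammatory cytokine genes described here were Il1a, Il1b, Il1rn, Il6, Lif, Osm, Il10, Tnf, Il15 and Il18. They were chosen by name, with earlier results of these data known. Every probe set of the array that the annotation assigns to one of these genes alone was taken. This gave 13 of 34945 single-gene probe sets, with 3 for Il1rn, 2 for Lif and 1 for each other gene. The measurements came from 12 primary B-cell lymphomas, isolated from lymph nodes of Eμ-myc transgenic mice, in which an immunoglobulin enhancer drives Myc in B-lineage cells. Each lymphoma gave 1 array after ADR and 1 array untreated, 12 arrays per group. In the ADR group the cells were kept for 5 days in vitro with 0.05 µg/ml Adriamycin (doxorubicin, a drug that damages DNA), and in the untreated group they were not given the drug. The series title speaks of treatment-induced senescence, in which cells stop dividing for good but stay alive. All cells in both groups carried a retroviral Bcl2 (MSCVpuro), which blocks apoptosis, were selected with puromycin, and grew on gamma-irradiated (20 Gy) NIH 3T3 mouse fibroblasts as a feeder layer. Total RNA was measured without a stated separation of the feeder, so each array can hold RNA of lymphoma cells, feeder cells and any other cells carried over from the node.

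Cytokines are secreted or membrane-bound proteins through which cells signal to each other during inflammation. IL-1α and IL-1β signal through the IL-1 receptor, which the antagonist encoded by Il1rn occupies without signalling, whereas IL-6, LIF and OSM share the signal transducer gp130. TNF signals through its own receptors, IL-18 is made as a precursor that caspase-1 cleaves as it does IL-1β, IL-15 sustains T and NK cells, and IL-10 restrains inflammatory gene expression. Senescent cells of many kinds are known to secrete IL-6, IL-1 and related factors, and macrophages and fibroblasts are among the usual producers of the cytokines listed here.

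Values are log2 expression as deposited, and each change is ADR minus untreated within a lymphoma. Array medians lay between 4.38 and 4.47. Levels at or below the higher of these are near the floor of the array, where true changes are compressed, and no fold is given for a gene whose mean lay there in either group. A gene was called at an adjusted p under 0.05 in limma's paired fit over 18193 genes, with Benjamini-Hochberg adjustment. Of those genes, 13.7% were called higher and 12.8% lower after ADR.

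The labelled cell type was checked first. B-cell markers were present on all arrays: the mean over 13 genes ran from 7.81 to 10.42 after ADR (median 8.95) and from 9.27 to 9.88 untreated (median 9.64). Markers of other cells differed between the groups. The mean over 25 fibroblast markers ran from 4.94 to 9.17 after ADR (median 7.10) and from 4.60 to 5.46 untreated (median 4.91), and was higher after ADR in 11 of 12 lymphomas. For 23 macrophage markers it ran from 6.34 to 9.33 after ADR (median 8.47) and from 5.21 to 8.33 untreated (median 7.06), higher in all 12. In such bulk RNA, fewer cells of a type and less RNA per cell cannot be told apart.

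Of the 10 cytokine genes, 9 were higher after ADR, 0 were lower, and Osm did not pass the test. The median change of the 10 genes was 1.18 on the log2 scale, against -0.01 over all 18193 genes. The genes had been chosen with earlier results of these data known, so this contrast is a description and not independent support. In the fit over all probe sets, 11 of the 13 were called higher and 0 lower, where 11.3% of all single-gene probe sets were called higher. Tnf and Il18 were higher in each of the 12 lymphomas, a pattern that 3.02% of all genes showed. For 0 of the 10 genes did the values after ADR lie wholly outside the untreated range, which held for 0.297% of all genes. Lymphomas differed widely in level in both groups, and the differences were seen within them.

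**Figure D1:**
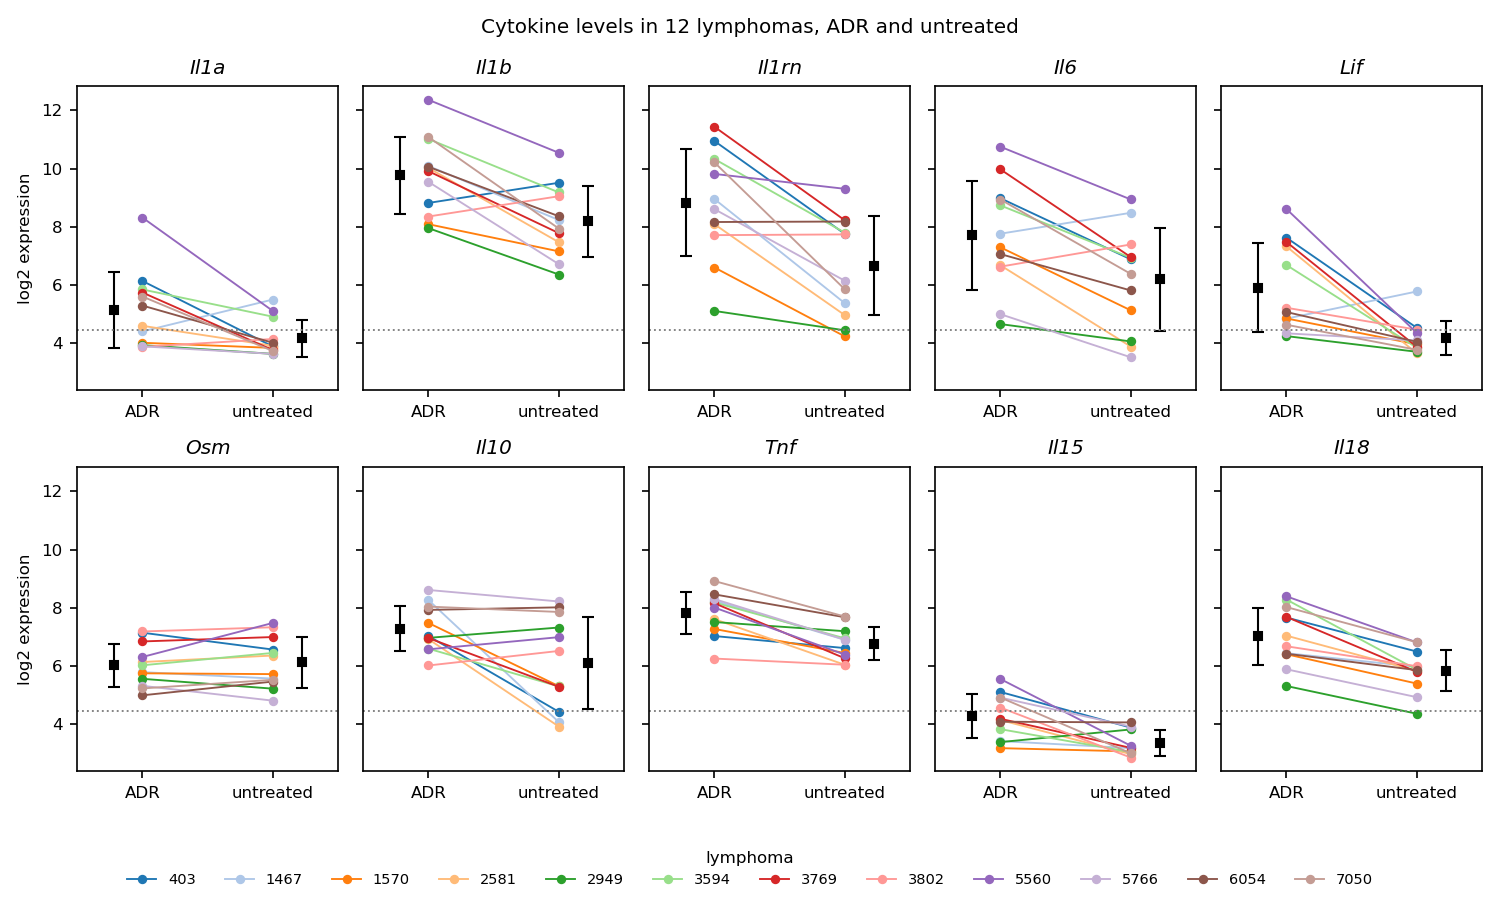
Log2 expression of the 10 cytokine genes (vertical axis) on each array, with ADR left of untreated, a line joining the arrays of a lymphoma, squares and bars for mean ± SD (n = 12 each) and a dotted line at the floor of 4.47. ADR points stand above their untreated partners for Tnf and Il18 in all 12 lymphomas, the ranges of the groups overlap for all 10 genes, and Il1a, Lif and Il15 lie mostly at the floor untreated.

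Among the interleukin-1 genes, both agonist genes, Il1a and Il1b, and the antagonist gene Il1rn were higher after ADR, and Il1a lay near the floor on most untreated arrays. Il1b ran from 7.96 to 12.36 after ADR (median 9.97), against 6.37 to 10.54 untreated (median 8.09). All 24 arrays were above the floor, but the ranges overlapped. Il1b averaged 9.78 ± 1.32 after ADR and 8.20 ± 1.22 untreated (SD, n = 12 each), a 2.99-fold difference (log2 change 1.58, SE 0.32, limma adjusted p = 0.00226). It was higher in 10 of 12 lymphomas and lower in lymphomas 403 (-0.69) and 3802 (-0.70).

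Il1rn, measured by its brightest probe set, ran from 5.12 to 11.43 after ADR (median 8.78) and from 4.24 to 9.31 untreated (median 6.95). It averaged 8.83 ± 1.84 after ADR and 6.67 ± 1.69 untreated, 4.47-fold higher (log2 change 2.16, SE 0.39, limma adjusted p = 0.00112). By this probe set, changes ran from -0.02 in both 3802 and 6054 to 4.35 in 7050. The other Il1rn probe sets gave changes of 1.81 and 1.78, adjusted p = 0.00404 and 0.00236 in limma's fit over all probe sets, and the second was higher in all 12 lymphomas. In 6054 they moved in opposite directions. The first read 7.04 after ADR and 7.75 untreated, and the second 6.88 after ADR and 6.42 untreated.

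Il1a, the gene of IL-1α, an agonist that often stays with the cell that makes it, ran from 3.89 to 8.32 after ADR (median 4.95) and from 3.64 to 5.51 untreated (median 3.91), and was above the floor on 7 ADR arrays and 3 untreated arrays. The change was 0.96 (SE 0.31, limma adjusted p = 0.0361), higher in 10 of 12 lymphomas, the most in 5560 (3.20) and 403 (2.25), and lower in 1467 (-1.09). The call was lost in 7 of the 12 fits that each left out 1 lymphoma (without 2581, 3594, 3769, 5560, 6054, 7050 or 403), with adjusted p up to 0.0793.

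The promoters of both IL-1 agonist genes are shown because the genes lie on the same chromosome and strand, and differ in how far they lay above the floor and in the lymphomas where they were lower after ADR. Each line is the 250 bases before the RefSeq start in GRCm38.p6, on the minus strand, 5′ to 3′: Il1a at chr2:129309973-129310222 and Il1b at chr2:129371140-129371389. Capitals mark a match to the AP-1 motif TGANTCA, searched on both strands.
Il1a: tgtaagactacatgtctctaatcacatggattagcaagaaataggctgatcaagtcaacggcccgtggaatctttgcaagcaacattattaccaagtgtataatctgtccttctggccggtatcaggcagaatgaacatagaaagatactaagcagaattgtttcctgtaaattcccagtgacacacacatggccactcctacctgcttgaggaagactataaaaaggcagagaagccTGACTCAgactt
Il1b: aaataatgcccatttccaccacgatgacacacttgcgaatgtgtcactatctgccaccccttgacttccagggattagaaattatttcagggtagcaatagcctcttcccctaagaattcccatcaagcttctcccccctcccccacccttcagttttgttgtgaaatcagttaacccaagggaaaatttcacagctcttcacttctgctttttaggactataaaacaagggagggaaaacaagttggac
Il1a held 1 such match, 12 to 6 bases before the start, and 6.75% of 32851 promoter windows of the same length hold at least 1. The Il1b window held 0 matches to AP-1, to the kappa B consensus or to the C/EBP motif TTGCNNAA. Of 3 Il1rn windows, the first held 1 AP-1 match. A match describes letters, not binding.

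Il6 and Lif, ligands of gp130 receptors, rose, while Osm of the same family did not pass the test. Il6 ran from 4.67 to 10.75 after ADR (median 7.53) and from 3.53 to 8.94 untreated (median 6.64). It averaged 7.71 ± 1.86 after ADR and 6.20 ± 1.76 untreated, 2.84-fold higher (log2 change 1.51, SE 0.32, limma adjusted p = 0.00366). The largest change was 3.01 in lymphoma 3769. Il6 was lower in 1467 (-0.72) and 3802 (-0.76), so 10 of 12 lymphomas moved up.

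Lif ran from 4.25 to 8.61 after ADR (median 5.15) and from 3.66 to 5.78 untreated (median 4.01). It was above the floor on 10 ADR arrays and 2 untreated arrays. The change was 1.74 (SE 0.43, limma adjusted p = 0.00891), higher in 11 of 12 lymphomas, with 4.25 in 5560, 3.67 in 2581 and 3.60 in 3769, and -0.93 in 1467. The other Lif probe set was above the floor on 1 ADR array and 0 untreated arrays and gave a change of 0.18 (adjusted p = 0.238 over all probe sets), so the Lif result rests on 1 probe set.

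Osm, the gene of oncostatin M, ran from 5.00 to 7.19 after ADR (median 5.91) and from 4.82 to 7.48 untreated (median 6.05), above the floor on all 24 arrays. The change was -0.10 (95% interval -0.38 to 0.18, limma adjusted p = 0.645), higher in 5 lymphomas and lower in 7. The largest single change was -1.17 in lymphoma 5560, where Il6 and Lif were higher by 1.81 and 4.25.

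The Il6 and Lif promoters are shown because both genes rose and their windows held the most motif matches among the members. Each line is the 250 bases before the RefSeq start in GRCm38.p6, plus strand, 5′ to 3′: Il6 at chr5:30012864-30013113 and Lif at chr11:4257318-4257567. Capitals mark matches, on either strand, to AP-1 (TGANTCA), C/EBP (TTGCNNAA) or the kappa B consensus, the site bound by NF-κB.
Il6: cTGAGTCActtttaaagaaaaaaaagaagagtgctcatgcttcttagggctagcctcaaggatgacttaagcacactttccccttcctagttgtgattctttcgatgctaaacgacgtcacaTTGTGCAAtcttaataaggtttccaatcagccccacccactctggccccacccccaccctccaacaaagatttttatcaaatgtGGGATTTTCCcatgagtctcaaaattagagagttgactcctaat
Lif: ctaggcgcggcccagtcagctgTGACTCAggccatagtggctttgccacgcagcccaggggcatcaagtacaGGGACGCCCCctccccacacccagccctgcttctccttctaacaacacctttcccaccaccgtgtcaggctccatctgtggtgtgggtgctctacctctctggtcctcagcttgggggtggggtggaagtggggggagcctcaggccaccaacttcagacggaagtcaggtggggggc
In Il6 the AP-1, C/EBP and kappa B matches begin 249, 128 and 44 bases before the start. In Lif the AP-1 and kappa B matches begin 228 and 178 bases before it. The kappa B consensus occurs in 9.55% and the C/EBP motif in 9.56% of the 32851 windows. The Tnf and Il18 windows held 0 matches to these 3 motifs, and Osm, Il10 and Il15 were not examined.

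Tnf, the gene of the inflammatory cytokine TNF, and Il10, the gene of a cytokine that restrains such signals, were both higher after ADR, with different evenness. Tnf ran from 6.26 to 8.92 after ADR (median 8.09) and from 6.05 to 7.70 untreated (median 6.76). It averaged 7.83 ± 0.73 after ADR and 6.77 ± 0.56 untreated, 2.10-fold higher (log2 change 1.07, SE 0.15, limma adjusted p = 0.000162). Changes ran from 0.21 in lymphoma 3802 to 1.89 in 3769, all above 0.

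Il10 ran from 6.02 to 8.62 after ADR (median 7.004) and from 3.93 to 8.22 untreated (median 5.92). It averaged 7.29 ± 0.78 after ADR and 6.11 ± 1.57 untreated, 2.26-fold higher (log2 change 1.18, SE 0.40, limma adjusted p = 0.0451). The largest changes were 4.19 in lymphoma 1467, 3.00 in 2581 and 2.60 in 403. In these 3 lymphomas the untreated level (4.08, 3.93 and 4.43) was below the floor, so the changes are taken against values near background. In 4 lymphomas Il10 was lower after ADR, with changes down to -0.50. The call was lost in 7 of the 12 fits without 1 lymphoma (1467, 1570, 2581, 3594, 3769, 5766 or 403), with adjusted p up to 0.0941.

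Il18 gave the smallest adjusted p of the 10 genes. It ran from 5.32 to 8.40 after ADR (median 6.87) and from 4.37 to 6.82 untreated (median 5.87). It averaged 7.03 ± 0.99 after ADR and 5.85 ± 0.71 untreated, 2.26-fold higher (log2 change 1.17, SE 0.15, limma adjusted p = 9.2e-05). Changes ran from 0.47 in lymphoma 1467 to 2.41 in 3594. Il15 lay low throughout, from 3.19 to 5.56 after ADR (median 4.17) and from 2.86 to 4.07 untreated (median 3.19), above the floor on 5 ADR arrays and 0 untreated arrays. Its change was 0.92 (SE 0.22, limma adjusted p = 0.00632), higher in 11 of 12 lymphomas and lower in 2949 (-0.43).

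**Figure D2:**
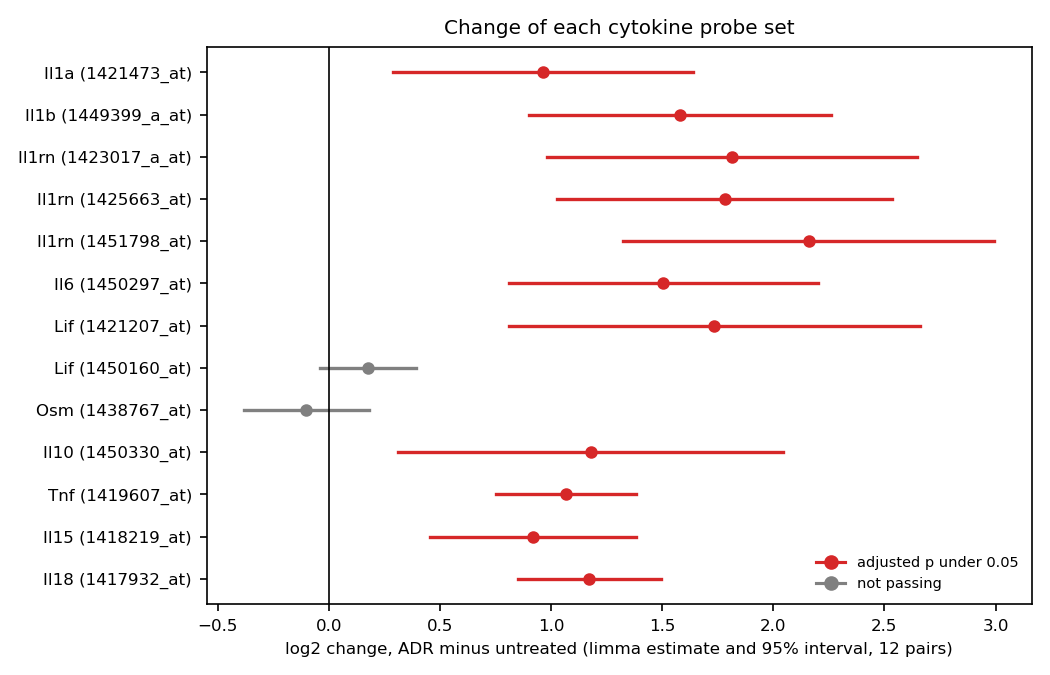
Change in log2 expression, ADR minus untreated, of each of the 13 probe sets (points, limma estimate over 12 pairs) with its 95% interval; red marks an adjusted p under 0.05 and grey the rest. The intervals of Osm and of the second Lif probe set span 0, and the 3 Il1rn probe sets lie close together at 1.81, 1.78 and 2.16.

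Lymphomas did not share 1 pattern. By sign alone, all 10 cytokine genes were higher after ADR in 1570 and 5766. In 3802 only 4 were (Lif, Tnf, Il15 and Il18), and the median change there was -0.08. The other medians lay between 0.35 in 1467 and 2.06 in 2581. The counts of signs include changes near 0, such as Osm in 1570 (0.03) and Il1rn in 3802 (-0.02). They also include pairs with both arrays below the floor, such as Il1a in 1570, 5766 and 3802. Lymphoma 1467 paired the largest Il10 change (4.19) and a large Il1rn change (3.57) with lower Il1a, Il6 and Lif, and it had the highest untreated levels of Il1a and Lif. Lymphoma 5560 had the highest level after ADR of 6 genes (Il1a, Il1b, Il6, Lif, Il15 and Il18) and the highest untreated level of 4 (Il1b, Il1rn, Il6 and Osm).

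**Figure D3:**
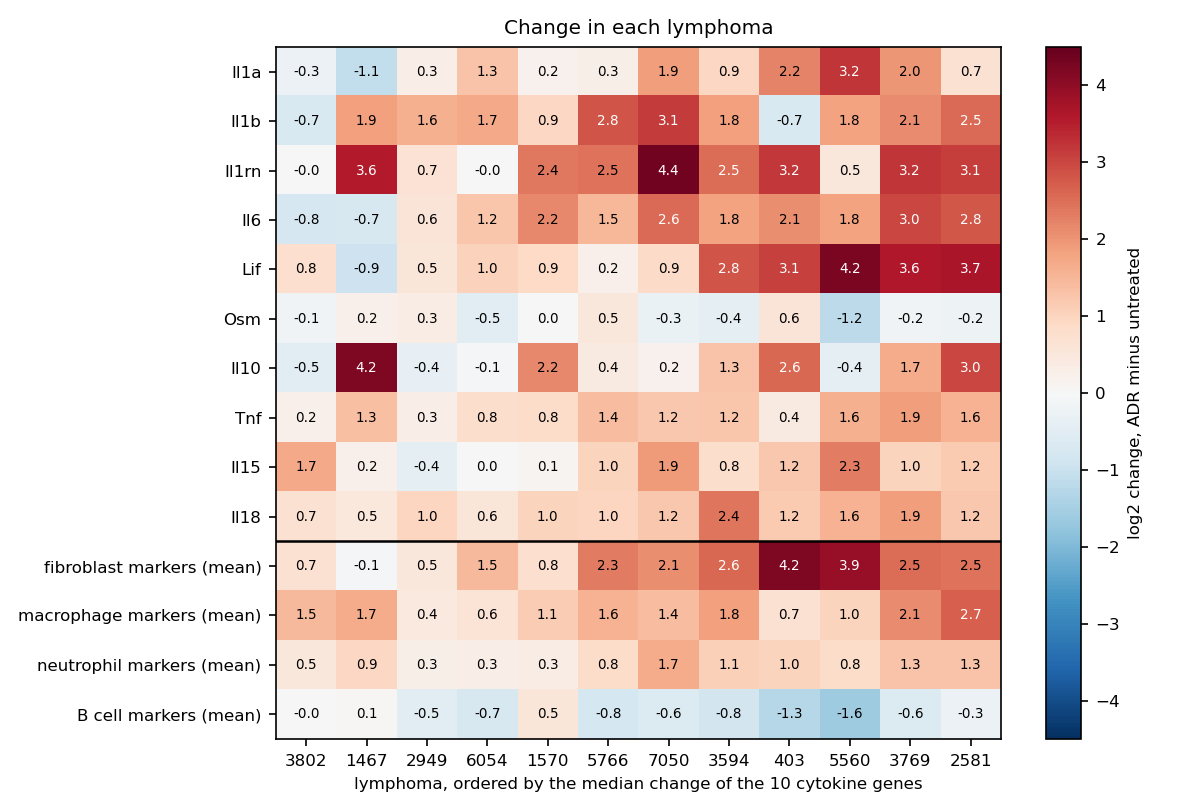
Change in log2 expression, ADR minus untreated (colour and printed value), of each cytokine gene and of the means of 4 marker lists in each lymphoma, ordered by the median change of the cytokines. Lymphoma 3802 shows 6 cytokine genes below 0, among them Il1rn at -0.02. The changes of Il1a, Il6 and Lif in 1467 are -1.09, -0.72 and -0.93.

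The rest of the signalling route was read from 4 lists, also chosen with earlier results of these data known. Of 16 measured receptor genes, 7 were higher and 0 lower (median change 0.31). Tnfrsf1b, the TNF receptor 2 gene, averaged 9.64 after ADR and 8.06 untreated (log2 change 1.59, limma adjusted p = 0.000447), and Il10rb, a chain of the IL-10 receptor, averaged 8.99 after ADR and 7.97 untreated (change 1.03, adjusted p = 9.2e-05). Osmr, the oncostatin M receptor chain, averaged 5.47 after ADR and 2.99 untreated, with the untreated mean below the floor (change 2.48, adjusted p = 0.00478).

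Of 15 genes on a list for processing and sensing, which includes receptors for microbial products, 7 were higher and 1 lower (median 0.46). Tlr2, a receptor for bacterial lipoproteins, averaged 9.18 after ADR and 7.44 untreated (change 1.73, limma adjusted p = 0.00103). Tlr4, the endotoxin receptor, averaged 6.999 after ADR and 5.71 untreated (change 1.29, adjusted p = 0.00073). Irak3, an inhibitor of this signalling, was higher by 0.77 (adjusted p = 0.0428), and the adaptor Traf6 fell by 0.28 (adjusted p = 0.0213).

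Of 20 feedback and target genes, 11 were higher and 0 lower (median 0.53). Ptgs2, the inducible cyclooxygenase, averaged 8.27 after ADR and 5.03 untreated (change 3.24, limma adjusted p = 0.00186). Saa3, an acute-phase gene, averaged 11.41 after ADR and 9.32 untreated (change 2.09, adjusted p = 3e-05), and Tnfaip2 averaged 8.22 after ADR and 6.44 untreated (change 1.78, adjusted p = 0.000278).

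Of 31 other cytokine genes, 7 were higher, 2 lower and 22 not called (median change -0.0031). Csf1, the macrophage growth factor, averaged 8.79 after ADR and 7.08 untreated (change 1.71, limma adjusted p = 0.000135) and was higher in all 12 lymphomas. Clcf1, another gp130 ligand, was higher by 0.87 (adjusted p = 0.018) and Tnfsf9, the 4-1BB ligand, by 0.72 (adjusted p = 0.0408). Il12a, a subunit of IL-12, averaged 6.12 after ADR and 6.90 untreated (change -0.78, adjusted p = 0.0294). The fibroblast and macrophage marker means rose on the same arrays (mean changes 1.96 and 1.39). With either mean as a covariate the counts over the 4 lists fell, as they did over all genes. In the lists 3 genes were called with the fibroblast mean and 0 with the macrophage mean, against 35 without a covariate. Of all genes, 5.5% were called with the fibroblast mean and 0% with the macrophage mean, against 13.7% higher and 12.8% lower without a covariate.

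Marker genes were then set beside the cytokines, to ask which cells the signal went with. Of 25 fibroblast markers 21 were higher and 0 lower (median change 1.94), led by Cald1 (4.09), Fn1 (3.47) and Lox (3.40). Of 23 macrophage markers 17 were higher and 0 lower (median 1.47), led by Clec4d (2.99), Clec4n (2.44) and Adgre1 (2.19), while Cd163 stayed below the floor (2.78 after ADR, 2.77 untreated). Of 12 neutrophil markers 4 were higher (median 0.16), among them Lcn2 (2.77), Mmp8 (2.46) and S100a8 (2.20), with Mpo, Elane, S100a9 and Ngp near the floor in both groups. Among T and NK cell markers 2 of 15 were higher and 1 lower, with Thy1, also a fibroblast marker, at 1.74, Gzma at 0.18 and Klrd1 at -0.23. Of 8 dendritic cell markers 0 were higher and 2 lower, Ccr7 (-0.93) and Flt3 (-0.57). Of 13 B-cell markers 0 were higher and 5 lower, with Vpreb3 (-2.17), Cd22 (-1.33) and Cd24a (-1.11) first.

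Across the 12 lymphomas, the changes of Il1a and Lif followed the change of the fibroblast marker mean. The family held 60 relations, of 10 genes with 3 marker lists, as changes and as untreated levels, with Benjamini-Hochberg adjustment over all 60. For Il1a, Pearson's r was 0.85 (permutation p = 0.00056, adjusted 0.0183) and Spearman's rho 0.81 (permutation p = 0.00227, adjusted 0.0426). For Lif, r was 0.81 (permutation p = 0.00139, adjusted 0.0278) and rho 0.79 (permutation p = 0.0031, adjusted 0.0426). Without 1467 and 403, the lymphomas farthest from the median fibroblast change, r was 0.78 for Il1a and 0.76 for Lif. With the median of the markers in place of their mean, Il1a kept its call and Lif did not (adjusted p = 0.0156 and 0.0652). Treated array files carried 2 kinds of name, DOX (7 lymphomas) and sen (5 lymphomas), a possible batch. For Il1a r was 0.60 in the 7 DOX lymphomas (exact permutation p = 0.158), and for Lif it was 0.58 (exact permutation p = 0.148), so neither relation passed there. In that set r was higher for Tnf (0.93), Il10 (0.86), Il6 (0.82), Il1rn (0.77), Il18 (0.70) and Il1b (0.66). It was lower for Il15 (0.32) and Osm (-0.21). The relation to fibroblast markers was thus not particular to Il1a and Lif within the DOX set. No correlation was computed over the 5 sen lymphomas. There the change of the fibroblast mean was -0.07 in 1467, 0.77 in 1570, 2.45 in 2581, 3.93 in 5560 and 4.22 in 403. In the same order, the Il1a changes were -1.09, 0.18, 0.68, 3.20 and 2.25, and the Lif changes were -0.93, 0.89, 3.67, 4.25 and 3.09. In both genes the lowest values stood where the fibroblast mean changed least.

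For Il1rn, 3 of the 4 relations to macrophage and neutrophil markers passed. Its change followed the neutrophil marker mean (r = 0.79, permutation p = 0.00279, adjusted 0.0404; rho = 0.78, permutation p = 0.00394, adjusted 0.0426), with r = 0.69 without 7050 and 2949 and 0.95 in the DOX set (exact permutation p = 0.00238). With the macrophage mean the change gave r = 0.51, which did not pass (permutation p = 0.0928, adjusted 0.314; rho = 0.47, permutation p = 0.129, adjusted 0.336). Its untreated level followed the untreated macrophage mean (r = 0.84, permutation p = 0.00061, adjusted 0.0183), with r = 0.82 without 1570 and 1467 and 0.69 in the DOX set (exact permutation p = 0.0905). Spearman's rho was 0.83 (permutation p = 0.0018, adjusted 0.0426). It also followed the untreated neutrophil mean (r = 0.79, permutation p = 0.00337, adjusted 0.0404; rho = 0.80), with r = 0.72 without 5560 and 3594 and 0.58 in the DOX set (exact permutation p = 0.167). Of the 12 neutrophil markers only 4 were called, and S100a9, Mpo, Elane, Ngp, Ltf and Cxcr2 averaged below the floor in both groups. The neutrophil mean therefore varied mainly through the other markers on that list. With the median of the markers, the relations to neutrophil markers did not pass (r = 0.15 for the change and 0.43 for the untreated level). The relation to untreated macrophage markers did (r = 0.88, permutation adjusted p = 0.0156). The lists themselves were related: untreated macrophage and neutrophil means correlated with r = 0.75, their changes with r = 0.62, and changes of fibroblast and macrophage means with r = 0.05.

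The Il1b change gave r = -0.0024 with the fibroblast mean (permutation adjusted p = 0.994). Without 1467 and 403 that r was 0.55, and in the DOX set it was 0.66 (exact permutation p = 0.0952). The untreated Il1b level gave r = 0.69 with macrophage markers, which did not pass (permutation p = 0.0125, adjusted 0.125). Spearman's rho there was 0.75 (permutation p = 0.00703, adjusted 0.0603). Il6 gave r = 0.64 with fibroblast markers (permutation p = 0.0245, adjusted 0.183; rho = 0.59, permutation p = 0.0495, adjusted 0.186). Tnf gave r = 0.66 with macrophage markers (permutation p = 0.0197, adjusted 0.169; rho = 0.63, permutation p = 0.0326, adjusted 0.14). With fibroblast markers Tnf gave r = 0.32 over 12 lymphomas (permutation p = 0.309, adjusted 0.544), 0.86 without 1467 and 403 and 0.93 in the DOX set (exact permutation p = 0.00377). Il15 gave r = 0.61 with fibroblast markers, which did not pass (permutation p = 0.0359, adjusted 0.187). Il18 gave r = 0.58 (permutation adjusted p = 0.206) but rho = 0.78 (permutation p = 0.00426, adjusted 0.0426) with fibroblast markers. The untreated Il18 level gave r = 0.60 with macrophage markers, which did not pass (permutation p = 0.0374, adjusted 0.187). Without 1570 and 1467 that r was 0.825, and in the DOX set it was 0.88 (exact permutation p = 0.0107). In all, 3 of 30 relations of changes and 2 of 30 of untreated levels passed by Pearson's r.

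**Figure D4:**
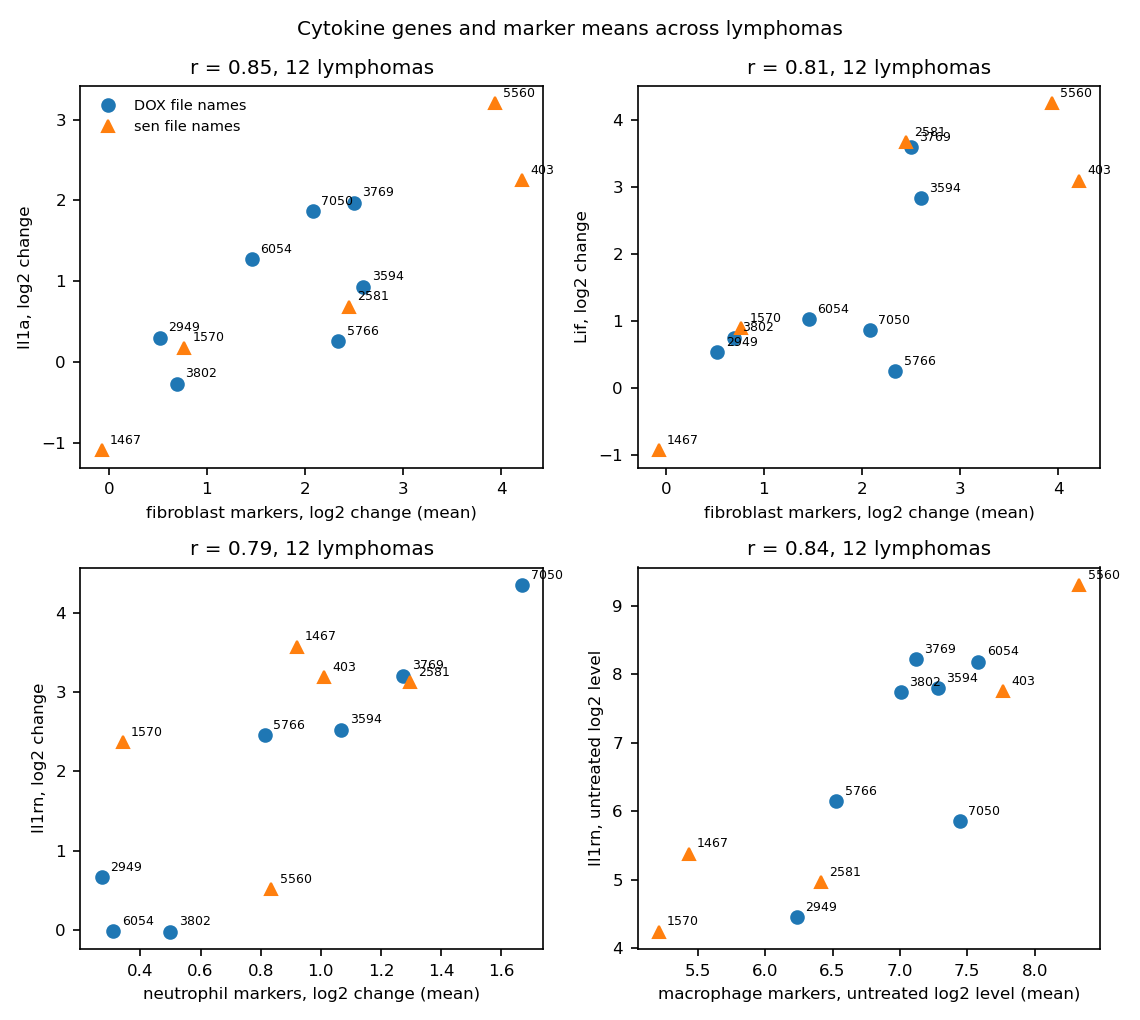
Log2 changes of Il1a, Lif and Il1rn against the change of a marker mean, and untreated Il1rn levels against the untreated macrophage mean, 1 point per lymphoma with its number (circles for DOX and triangles for sen file names). Values rise together in each panel, with r = 0.85 for Il1a, 0.81 for Lif, and 0.79 and 0.84 for Il1rn.

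The paired comparison was repeated with marker means as covariates. With the fibroblast mean in the fit, 0 of the 10 genes were called, where 5.5% of all genes were. The estimates were 1.58 for Il1b (SE 0.59), 1.80 for Il1rn (SE 0.71) and 1.33 for Il10 (SE 0.75). They were -0.54 for Il1a (SE 0.31), -0.24 for Lif (SE 0.47), 0.33 for Il6 (SE 0.46), 0.18 for Il15 (SE 0.32) and 0.0856 for Osm (SE 0.24). Whether these estimates differ between genes was not tested. Tnf was at 0.81 (limma adjusted p = 0.0905) and Il18 at 0.69 (adjusted p = 0.0984). With the macrophage mean, 0 genes were called, as were 0% of all genes, although 1932 genes had an unadjusted p under 0.05. There Il1a was at 1.41 (SE 0.77), against 0.96 (SE 0.31) without a covariate. The other estimates were Il6 (0.77), Lif (0.77), Il18 (0.76), Il1b (0.58), Il1rn (0.58), Il15 (0.43), Tnf (0.30), Osm (0.0012) and Il10 (-0.30). The macrophage mean rose in all 12 lymphomas, by 0.43 or more. These estimates refer to no change in it, which lies outside the data. With both means, 0 genes and 0% of all genes were called (2228 at unadjusted p under 0.05), and 6 of the 10 estimates were above 0. At unadjusted p under 0.05 the counts were 4 genes with the fibroblast mean (Il1b, Il1rn, Tnf and Il18), 1 with the macrophage mean (Il18) and 0 with both. The errors widened in these fits, except for Il1a with the fibroblast mean. For Il1b the SE was 0.59 with the fibroblast mean and 0.73 with the macrophage mean, against 0.32 without a covariate. Which cells made each transcript was not tested.

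**Figure D5:**
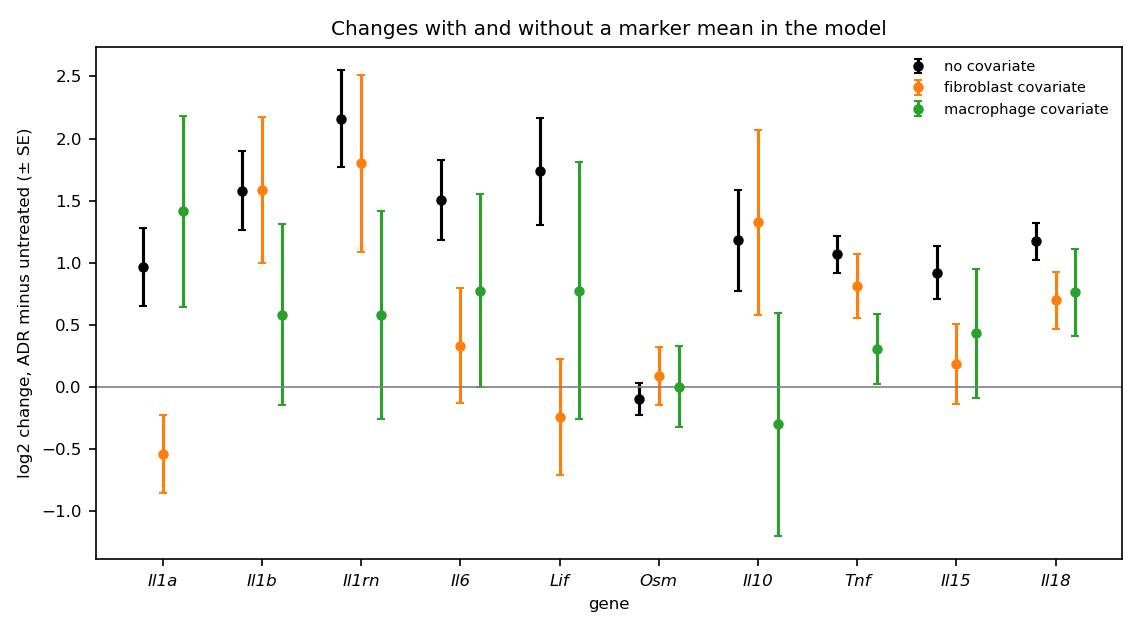
Change in log2 expression, ADR minus untreated, of the 10 cytokine genes in the paired fit without a covariate, with the fibroblast mean and with the macrophage mean; bars are ± SE. The Il1a and Lif estimates lie below 0 with the fibroblast mean, while Il1b is at 1.58 both with and without it.

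The DOX and sen sets were compared directly. Of all 18193 genes, 0% were called at adjusted p under 0.05 for a change that differed between the sets. At unadjusted limma p under 0.05 there were 1237, and 0 of the 10 cytokine genes passed the adjusted test. With 7 and 5 lymphomas, this does not show that the sets were alike. Il10 had the smallest p: its change averaged 0.37 in the DOX set and 2.31 in the sen set (difference -1.94, SE 0.65, limma p = 0.0114, adjusted 0.683). It was higher after ADR in 4 of 7 DOX lymphomas and 4 of 5 sen lymphomas. In a fit of the 7 DOX lymphomas alone, 7 of the 10 genes were called higher, where 9.06% of all genes were. In a fit of the 5 sen lymphomas alone, 3 were (Il1rn, Tnf and Il18), where 1.86% of all genes were.

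Likeness to other genes was described over the 24 arrays after removing each group's mean. This took out the mean treatment difference, but differences between lymphomas in their response to ADR remained. Lif, for example, had an SD of 1.52 after ADR and 0.58 untreated, and Dcn 2.66 and 0.91. High r can therefore reflect the same changes as the relations above. The arrays come in pairs from 12 lymphomas, and no test was made. Lif was most like Dcn (r = 0.95), a fibroblast marker, Cxcl1 (0.93) and Ereg (0.92), and Il15 was most like Arhgap29 (0.84), Col1a2 (0.81), also a fibroblast marker, and F3 (0.80). Of the 100 genes most like Il15, 10 were fibroblast markers, and of those most like Lif, 4 were. Il1rn was most like Msr1 (0.87), a macrophage marker, Adam8 (0.87) and Ctsb (0.86), with 7 macrophage markers among its 100. Il1b was most like Sod2 (0.86), Csf2rb (0.84) and Socs3 (0.83), with 4 macrophage markers.

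Il18 was most like Atg7 (0.88), Cstb (0.87) and Gtf2a1 (0.87), with 3 macrophage markers among its 100, and Il6 most like Ahcyl2 (0.88), Lrrc75a (0.87) and Fam210b (0.84), with 2. For Osm the genes were Usp11 (0.86), Xxylt1 (0.85) and Renbp (0.84). Il1a, Tnf and Il10 had 0 markers among their 100: Il1a was most like Slc12a4 (0.84), Fbxl16 (0.84) and Hspa4l (0.83), Tnf most like Pik3cg (0.85), Trem1 (0.84) and Ubash3b (0.83), and Il10 most like Dkk3 (0.82), Klrb1f (0.82) and A430093F15Rik (0.82). The lowest r among the 100 differed by gene (0.75 for Il1a, 0.83 for Lif and 0.68 for Il15), so marker counts cannot be compared between genes. With the fibroblast mean itself, r was 0.69 for Il1a, 0.72 for Lif and 0.72 for Il15. Other lists gave r of similar size. For Il1a r was -0.71 with the B-cell mean and 0.61 with the neutrophil mean, and for Il15 it was -0.63 with the B-cell mean. With the macrophage mean it was 0.79 for Il1rn and 0.70 for Il18. Among the cytokines themselves, r was 0.82 for Il6 with Il18, 0.78 for Il6 with Il1a and 0.75 for Il1b with Il18. For Tnf with Il10 it was 0.54, and for Osm with Tnf -0.67.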

How the data were processed

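Biotin-labelled RNA of 24 samples was hybridised to Affymetrix arrays. Each probe set has 1 deposited log2 value per array. Per the submitters' processing notes, RMA (which corrects background, normalizes across arrays and summarises probes) and Partek were used (versions and options: not given in the sources used here). That the scale is log2 follows from the range, 1.97 to 14.36. Of 45101 probe sets, 34945 had 1 gene, 932 several, 9160 none, and 64 were controls. Each of 18193 genes was read from 1 such probe set, the brightest on average.

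Groups and lymphoma numbers came from the sample titles, and the series' design text states matched pairs. Within pairs, deviations from the group means correlated with r from 0.257 to 0.589, above 0.1 in all 12. By these deviations, 10 of the 12 untreated arrays were closest to the ADR array of their own lymphoma. Of all array pairs, 0 were identical. The number of lymphomas limits the precision.

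Changes were tested with limma 3.58.1 in R 4.3.3 (lmFit, eBayes) with the lymphoma as a block, and p-values were adjusted by Benjamini-Hochberg over all genes, or over all single-gene probe sets. Correlations were tested by two-sided permutation (100000 resamples, or every ordering within the DOX set) in Python 3.11.15 with scipy 1.17.1, numpy 2.4.6 and pandas 2.3.3; figures used matplotlib 3.10.9. Promoters came from RefSeq tables (7 of 10 genes, 9 windows, GRCm38.p6). The fit was tested on simulated data.

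In each list, genes named are the top 3 called genes by size in the majority direction plus the top called gene of the opposite direction, or, with no call, the 2 that moved most; for likeness, the 3 highest r. Marker genes named as near the floor were chosen after their values were seen. The members and lists were chosen with earlier results of these data known. Alternatives covered the pairing, array scaling, weights, probe-set choice, a filter on low values, marker covariates, the naming sets, and single lymphomas left out.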

Additional observations from a re-analysis of the deposited data

Results flagged for a closer look

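Of 20 groups of changes tested for a sample far from the others (10 genes in each naming set), 2 stood out, and chance marks about 1 in 20. The change of Il1b in lymphoma 3802 was -0.70, the lowest of the 7 DOX lymphomas, whose other values lay between 1.59 and 3.14. The change of Il6 in lymphoma 1467 was -0.72, the lowest of the 5 sen lymphomas, whose other values lay between 1.81 and 2.79.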

How the results depend on the processing

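Of the 10 cytokine genes, 9 were called in the paired fit, and 9 also under median centring, quantile normalization, a variance trend and another choice of probe set. Without the replicate block 6 of these were called (Il1a, Il6 and Il10 were lost), with 7 of 13 probe sets (11 when paired) and 21 of the genes of the 4 signalling lists changed (35 when paired). Array weights left 8 genes (Il10 lost), the DOX set 7 (Il10 and Il15 lost), and the sen set 3, with 4 genes of the signalling lists. A filter on low values left 6, since it removed Il1a, Lif and Il15 from the test. Leaving out single lymphomas gave 7 to 9 genes and 30 to 38 genes of the signalling lists.

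With the fibroblast covariate 0 cytokine genes and 3 genes of the signalling lists were called, and 0 of each with the macrophage covariate or both. Of all genes, 5.5% were called with the fibroblast covariate and 0% with the macrophage covariate or both. Signs turned for Il1a (-0.54), Lif (-0.24) and Osm (0.0856) with the fibroblast covariate, for Osm (0.0012) and Il10 (-0.30) with the macrophage covariate, and for Il6 (-0.29), Lif (-1.03), Osm (0.17), Il10 (-0.12) and Il15 (-0.24) with both. The cause was not tested.

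With the median of the markers in place of their mean, 1 relation of changes passed (3 with the mean) and 1 of untreated levels (2 with the mean). Signs of r turned for the change of Il18 with neutrophil markers (-0.016), and for untreated levels of Il1a (-0.32), Il1b (-0.0775), Il6 (-0.12), Tnf (-0.0223) and Il18 (-0.27) with neutrophil markers and Il6 with fibroblast markers (-0.062). The relation of the Il1rn change to neutrophil markers gave r = 0.15 (adjusted p = 0.952) and did not pass, and that of its untreated level to macrophage markers gave 0.88 (adjusted p = 0.0156) and did. Il1a, Lif and Il15 lay near the floor untreated, which limits how far their changes can be read.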
